A study of Mus musculus with 3 samples.

Results

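The N-glycan branching enzymes of the Golgi were followed through 10 genes, listed by symbol and all found among the 31053 genes of the table. They encode the Golgi mannosidases (Man1a, Man1a2, Man2a1, Man2a2), the N-acetylglucosaminyltransferases that start and multiply antennae (Mgat1, Mgat2, Mgat4a, Mgat4b, Mgat5) and the core fucosyltransferase Fut8. Tumour-infiltrating T cells came from C57BL/6 mice with subcutaneous B16-Ova melanoma or MC38-Ova colon carcinoma, lines that both carry ovalbumin, and were harvested on day 14. The labels give both tumours, but their growth protocol names MC38-OVA alone, so how B16-Ova tumours were grown is taken from the tumour label, and B16-Ova values rest on the hashtag key of the design text. No mouse was left without a tumour, no other treatment is given, and the ages of the mice and the number behind each tumour are not given in the sources used here. Sorted TCRB+ CD3+ CD90.2+ CD11b- cells were run in 1 droplet capture that reads the 5′ end of transcripts, with hashtag 1 on cells from B16-Ova and hashtag 2 on cells from MC38-Ova. The same droplets carried oligonucleotide tags for PD-1 and Tim-3 at the surface, and a biotin tag that reads the biotinylated plant lectin L-Pha.

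An N-glycan reaches the Golgi rich in mannose. Man1a and Man1a2 trim mannoses, Mgat1 adds the first N-acetylglucosamine, Man2a1 or Man2a2 removes further mannoses, and Mgat2 starts the second antenna. Mgat4a and Mgat4b then add the β1,4 branch and Mgat5 the β1,6 branch, which L-Pha binds, while Fut8 puts a fucose on the glycan core. In T cells the β1,6 branch is known for binding galectins on surface receptors and for restraining antigen-receptor signalling.

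The lectin was counted through the barcode of the anti-biotin tag, printed because every L-Pha value below is a count of it. The 250 bases before the annotated starts of Mgat5 and Mgat4a are printed because the class differences of these members passed the test under the most settings. Both are from RefSeq (GRCm38.p6), 5′ to 3′ on the strand of the gene, with each GGGCGG box on either strand (the SP/KLF motif) in capitals. The first lies at chr1:127204736-127204985 on the plus strand and the second at chr1:37541017-37541266 on the minus strand.
L-Pha tag barcode: cggtatatcaacaga
Mgat5 promoter: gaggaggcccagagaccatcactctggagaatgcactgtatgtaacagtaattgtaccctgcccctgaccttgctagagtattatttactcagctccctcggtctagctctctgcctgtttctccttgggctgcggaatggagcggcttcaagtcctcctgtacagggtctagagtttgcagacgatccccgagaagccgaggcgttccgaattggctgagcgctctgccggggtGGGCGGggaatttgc
Mgat4a promoter: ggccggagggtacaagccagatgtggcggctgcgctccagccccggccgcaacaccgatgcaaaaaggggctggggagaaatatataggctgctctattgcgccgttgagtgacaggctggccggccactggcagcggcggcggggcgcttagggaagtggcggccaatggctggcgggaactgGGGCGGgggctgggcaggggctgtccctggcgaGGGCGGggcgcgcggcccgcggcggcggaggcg
The Mgat5 window held 1 GGGCGG box, starting 15 bases before the start, and the Mgat4a window held 2, starting 66 and 33 bases before it. Of 32851 mouse promoter windows of this length, 32.7% held the box. Searched on both strands, CCGGAA (ETS), TGTGGT (RUNX), AGGTGTGA (T-box), TGANTCA (AP-1) and CTTTGAA (TCF/LEF) were in neither window, so no motifs overlapped there. They stood in 12.0%, 14.0%, 1.12%, 6.75% and 4.46% of all windows. The promoter table held 7 of the 10 members, and all 7 had at least 1 GGGCGG box.

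Of 19912 barcodes, 14992 had at least 500 genes, at most 10% mitochondrial UMIs (unique molecular identifiers, 1 per captured transcript) and a larger hashtag of at least 150 UMIs and 3 times the other. They comprised 6585 B16-Ova and 8407 MC38-Ova cells with a median of 6213 RNA UMIs (656 to 111658). A pool here means all cells of 1 tumour's hashtag, so neither tumour had a replicate. Both hashtags reached 150 UMIs in 16.5% of the 18429 barcodes past the cell filter, and pairs of cells from 1 pool carry no such sign. Raw UMIs of lineage genes set 4 classes. CD8 cells (at least 2 UMIs of Cd8a and Cd8b1, no Cd4 or Foxp3) numbered 1792 in B16-Ova and 2544 in MC38-Ova. Treg cells (Foxp3 present, no Cd8a or Cd8b1) numbered 777 and 960, and CD4 cells (Cd4 present, no Foxp3, Cd8a or Cd8b1) 753 and 736. Innate-like cells (Cd3e present, at least 2 UMIs of Fcer1g and Tyrobp, no Cd4 or Foxp3 and at most 1 UMI of Cd8a and Cd8b1) numbered 455 and 780. The other 6195 cells fell in no class. Summed RNA UMIs per class and pool ran from 2592067 to 20937848.

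The gates were checked against markers they did not use, apart from Cd3e in the CD8 list, which the innate-like gate requires. Summed Treg markers (Il2ra, Ctla4, Ikzf2, Tnfrsf4, Tnfrsf18) stood at 5275 to 5279 UMIs per 1000000 RNA UMIs (CPM) in Treg cells and at 869 to 2399 CPM elsewhere. Summed innate-like markers (Klrb1c, Klrk1, Klra7, Klre1, Xcl1, Ncr1) stood at 1716 to 1780 CPM in innate-like cells and at 129 to 668 CPM elsewhere. The CD8 list (Cd3e, Trac, Nkg7, Ccl5) was highest in CD8 cells, at 8160 to 10794 CPM, but not far above innate-like cells, at 6774 to 7723 CPM. In Treg and CD4 cells it stood at 2980 to 4775 and 3287 to 4995 CPM. The CD4 list (Cd40lg, Cd5, Icos, Cd28, Trac) was as high in Treg cells (2282 to 2520 CPM) as in CD4 cells (2157 to 2352 CPM). Markers of cells the sort should have left out were present and differed between pools. All 4 melanoma markers were detected in each class, summing to 236, 31.5, 322 and 436 CPM in B16-Ova CD8, Treg, CD4 and innate-like cells and to 28.4, 179, 31.7 and 33.1 CPM in MC38-Ova. Fibroblast markers summed to 1.93 to 3.48 CPM in B16-Ova and 25.7 to 239 CPM in MC38-Ova, with Col1a1 at 0 in both CD4 sums and in B16-Ova innate-like cells. Macrophage markers (Lyz2 among them) summed to 20.8 to 188 CPM, and B cell, dendritic and neutrophil lists to at most 7.72 CPM. The part of these cells in the results below was not tested.

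Mgat5 and Mgat4a, the genes for the outermost branches, were highest in innate-like cells. Mgat5 RNA was 2.56-fold lower in Treg cells than in innate-like cells, and Mgat4a was 3.1-fold lower. Man2a2 was highest in CD4 cells, whereas Man2a1 and Mgat2 were lower in innate-like than in Treg cells. Man1a, Man1a2, Mgat1, Mgat4b and Fut8 passed the test in no pair of classes.

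**Figure D1:**
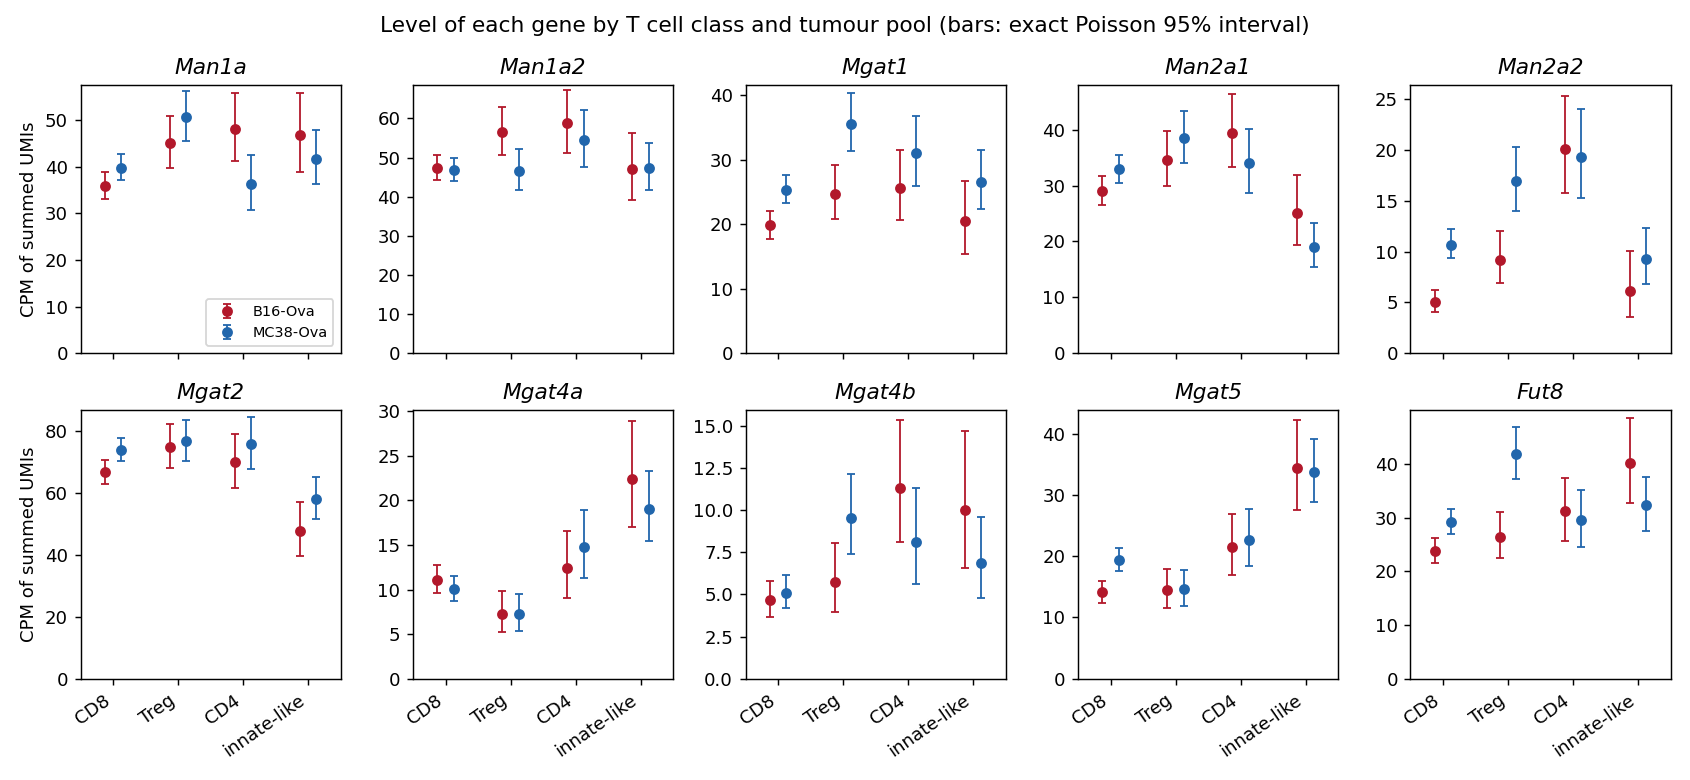
Level of each of the 10 genes in CPM of summed UMIs (vertical axes, each with its own scale from 0) in the 4 T cell classes, with 1 point per tumour pool and bars for the exact Poisson 95% interval, which covers counting error only. Mgat5 and Mgat4a stand highest in innate-like cells of both pools, and Man2a2 stands at 20.1 and 19.3 CPM in CD4 cells against 5.05 and 10.7 CPM in CD8 cells.

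Class differences were tested on the 8 UMI sums of 4 classes in 2 pools, with the pool as a block, by the quasi-likelihood test of edgeR, with p-values adjusted over 11188 genes (Benjamini-Hochberg) and called at 0.05. Cells are not replicates, and p-values measure how unevenly class differences repeat over these 2 pools, which share a capture. The overall difference between the pools is taken out by the block. The spread of each gene is partly borrowed from all genes tested. For Treg against innate-like cells 4 of the 10 members were called, where 21% of all genes tested were called. For CD8 against innate-like cells 2 members were called beside 8.13% of all genes, for CD4 against innate-like cells 2 beside 9.47%, and for CD8 against Treg cells 1 beside 15.5%. For CD8 against CD4 cells 1 was called beside 6.88%, and for Treg against CD4 cells 0 beside 3.35%. In the latter pair 3 members had an unadjusted p under 0.05, beside 2031 of the 11188 genes, and DESeq2 called 0 members. The median log2 fold change of the members lay between -0.18 and 0.12 over the 6 pairs, and that of all genes between -0.013 and 0.010.

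Of the class I mannosidases, which begin the trimming, the members Man1a and Man1a2 passed the test in no pair of classes. Man1a (chromosome 10, 53904785 to 54076609, minus strand) stood at 35.9 CPM in B16-Ova and 39.8 CPM in MC38-Ova CD8 cells, 45.1 and 50.6 in Treg, 48.0 and 36.2 in CD4 and 46.7 and 41.7 in innate-like cells. Its highest sum was 1.41 times its lowest, and the order of the classes differed between the pools. Man1a2 (chromosome 3, 100562208 to 100685503, minus strand) ranged from 46.7 to 58.7 CPM, 1.26-fold, the narrowest range among the members. Mgat1 (chromosome 11, 49244191 to 49263030, plus strand), whose enzyme opens the path to every complex glycan, ranged from 19.8 CPM in B16-Ova CD8 cells to 35.6 CPM in MC38-Ova Treg cells. It was higher in MC38-Ova in each class. The ranges of the classes overlapped, apart from those of CD8 (19.8 to 25.3 CPM) and CD4 cells (25.6 to 31.0 CPM).

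The class II mannosidases, which clear the way for the second antenna, did not move alike. Man2a1 (chromosome 17, 64600736 to 64755110, plus strand) stood at 29.1 and 33.0 CPM in CD8 cells of B16-Ova and MC38-Ova, 34.6 and 38.5 in Treg, 39.4 and 34.1 in CD4 and 25.1 and 19.1 in innate-like cells. Both innate-like sums lay below the other 6. Man2a1 was higher in Treg than in innate-like cells by 0.62 ± 0.18 (log2, SE; edgeR adjusted p 0.042). Against innate-like cells, CD8 cells differed by 0.51 ± 0.17 and CD4 cells by 0.64 ± 0.18, with edgeR adjusted p of 0.11 and 0.072.

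Man2a2 (chromosome 7, 80349097 to 80371375, minus strand), which encodes the second enzyme of this step, spanned 3.99-fold, the widest range of the 10. It stood at 5.05 and 10.7 CPM in CD8 cells of B16-Ova and MC38-Ova, 9.22 and 16.9 in Treg, 20.1 and 19.3 in CD4 and 6.17 and 9.25 in innate-like cells. Both CD4 sums lay above the other 6. Man2a2 was lower in CD8 than in CD4 cells by 1.28 ± 0.26 (log2, SE; 2.43-fold, edgeR adjusted p 0.033) and higher in CD4 than in innate-like cells by 1.27 ± 0.31 (edgeR adjusted p 0.042). Only 16 and 47 UMIs stand behind the innate-like sums. The gene overlaps Hddc3 on the opposite strand, at 1.38 to 2.84 CPM, and whether counting used the strand is not stated, so reads of the overlap cannot be told apart.

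Counted as a share of Man2a1 and Man2a2 UMIs together, Man2a1 made up 85.2% in B16-Ova CD8 cells (exact binomial 95% interval 82.1 to 88.0) and 66.2% (59.5 to 72.5) in B16-Ova CD4 cells. In MC38-Ova the shares were 75.5% (72.6 to 78.2) and 63.8% (57.2 to 70.1). The share was thus lower in CD4 than in CD8 cells of both pools, with intervals that cover counting error only. Mgat4a made up 56.0% and 43.1% of Mgat4a and Mgat4b UMIs in Treg cells, against 69.0% and 73.5% in innate-like cells. These shares compare classes and not the 2 genes of a pair, whose levels were not put on a scale per length.

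Mgat2 (chromosome 12, 69184157 to 69186770, plus strand) encodes the transferase of the second antenna. Its sums were 66.8 and 73.9 CPM in CD8 cells of B16-Ova and MC38-Ova, 75 and 76.9 in Treg, 70.0 and 75.7 in CD4 and 47.8 and 58.2 in innate-like cells. Both innate-like sums were the lowest. The difference between Treg and innate-like cells was 0.38 ± 0.11 (log2, SE; 1.30-fold, edgeR adjusted p 0.041), and that between CD8 and innate-like cells, 0.39 ± 0.10, had an edgeR adjusted p of 0.059.

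Mgat4a (chromosome 1, 37439340 to 37541016, minus strand) encodes a transferase of the β1,4 branch. It stood at 11.1 and 10.1 CPM in CD8 cells of B16-Ova and MC38-Ova, 7.31 and 7.23 in Treg, 12.4 and 14.8 in CD4 and 22.4 and 19.1 in innate-like cells. The order Treg, CD8, CD4, innate-like was the same in both pools. Mgat4a was lower in Treg than in innate-like cells by 1.63 ± 0.19 (log2, SE; edgeR adjusted p 0.00093) and lower in CD8 than in innate-like cells by 0.97 ± 0.17 (edgeR adjusted p 0.017). It was higher in CD8 than in Treg cells by 0.67 ± 0.18 (edgeR adjusted p 0.043). Treg against CD4 cells (-0.92 ± 0.20) and CD4 against innate-like cells (-0.71 ± 0.19) had edgeR adjusted p of 0.050 and 0.053 and did not pass, and CD8 and CD4 cells, neighbours in this order, differed by -0.25 ± 0.18.

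Mgat4b (chromosome 11, 50210890 to 50235103, plus strand) encodes the other transferase of that branch and ranged from 4.64 to 11.3 CPM on 26 to 107 UMIs a sum. In some sums 1 cell held many of them. In B16-Ova CD4 cells 24 of 41 Mgat4b UMIs came from 1 barcode with 66112 RNA UMIs, and without that barcode the level was 4.77 CPM instead of 11.3. In B16-Ova innate-like cells 14 of 26 came from 1 barcode with 88273 RNA UMIs, without which the level was 4.79 instead of 10.0 CPM.

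Mgat5 (chromosome 1, 127205015 to 127488336, plus strand), the gene of the branch that L-Pha reads, stood at 14.1 CPM in B16-Ova and 19.4 CPM in MC38-Ova CD8 cells, 14.4 and 14.6 in Treg, 21.5 and 22.6 in CD4 and 34.3 and 33.6 in innate-like cells. Innate-like cells lay above all 6 other sums in both pools. Treg cells were below innate-like cells by 1.36 ± 0.17 (log2, SE; edgeR adjusted p 0.0014), CD8 cells by 1.03 ± 0.16 (2.04-fold, edgeR adjusted p 0.011) and CD4 cells by 0.74 ± 0.17 (1.67-fold, edgeR adjusted p 0.035). CD8, Treg and CD4 cells were not told apart by the test: CD8 differed from Treg by 0.33 ± 0.16 and from CD4 by -0.29 ± 0.16, and Treg from CD4 by -0.61 ± 0.18, with edgeR adjusted p of 0.22, 0.32 and 0.12. The Mgat5 and Mgat4a calls between Treg and innate-like cells passed in all 8 tested alternatives of tool, filter, block and cells, with edgeR or DESeq2 adjusted p of at most 0.020 and 0.0073. The other 8 class calls of members each missed the threshold in 1 to 5 of those 8. All 10 rest on 2 pools: with hashtags at least 10 times the other only 2 member calls passed, and without the pool as a block 4. Under both rules fewer of all genes were called in each pair of classes too.

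Cells with at least 1 Mgat5 UMI made up 17.1% (exact binomial 95% interval 13.8 to 20.9) and 18.8% (16.2 to 21.8) of innate-like cells in B16-Ova and MC38-Ova, and 9.14% (7.21 to 11.4) and 9.38% (7.61 to 11.4) of Treg cells. With each cell thinned to 3000 RNA UMIs the shares were 10.2% and 10.7% in innate-like, 5.82% and 4.92% in CD4, 4.48% and 5.57% in CD8 and 3.99% and 4.71% in Treg cells. Thinning kept 420 of 455 and 719 of 780 innate-like cells, 537 of 753 and 540 of 736 CD4 cells, 1667 of 1792 and 2309 of 2544 CD8 cells, and 630 of 777 and 759 of 960 Treg cells. Innate-like cells were again the highest in both pools. No class here is known to lack the gene, so no background share could be set beside these. The 968 barcodes under 500 genes, with a median of 617 RNA UMIs, held 21 Mgat5 UMIs, or 32.3 CPM (exact Poisson 95% interval 20.0 to 49.3).

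Tmem163, a zinc transporter gene, lies on the strand opposite Mgat5 and overlaps it. Its levels were 42.1 and 34.5 CPM in CD8 cells of B16-Ova and MC38-Ova, 22.5 and 22.6 in Treg, 17.4 and 11 in CD4 and 3.86 and 7.87 in innate-like cells. In B16-Ova this order of classes is the reverse of that of Mgat5, whereas in MC38-Ova CD8 cells lay above Treg cells for both genes. Reads of the overlap cannot be told apart without the strand.

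Fut8 (chromosome 12, 77238125 to 77476338, plus strand), which fucosylates the core and takes no part in branching, stood at 23.8 and 29.2 CPM in CD8 cells of B16-Ova and MC38-Ova, 26.5 and 41.8 in Treg, 31.2 and 29.5 in CD4 and 40.1 and 32.3 in innate-like cells. The 2 pools ordered the classes differently, and no pair passed the test.

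Set beside the lectin, the classes with the most L-Pha did not hold the most Mgat5 or Mgat4a RNA. A cell's median L-Pha count in B16-Ova and MC38-Ova was 572 and 482 in Treg cells, 472 and 355 in CD8 cells, 291 and 358.5 in innate-like cells and 244 and 254 in CD4 cells. Treg cells thus bound the most L-Pha and had the least Mgat4a, and their Mgat5 was the lowest in MC38-Ova and within counting error of CD8 cells in B16-Ova. Over the 8 sums, Pearson's r between log2 median L-Pha and the log2 level was -0.66 for Mgat5 and -0.68 for Mgat4a. Of 8945 genes with a mean of at least 5 CPM, 6.99% and 6.46% had a lower r. For Mgat2 r was 0.28, for Man2a1 0.03, and for the other 6 it lay between -0.58 and 0.08. With L-Pha taken per 1000 RNA UMIs, where Treg cells had 100.4 and 87.6 and the other sums 53.2 to 66.3, r was -0.46 for Mgat5 and -0.61 for Mgat4a. The points are a description of 8 sums that share a capture, 2 pools and 4 classes. L-Pha UMIs also rise with the RNA UMIs of a cell, whose class medians ran from 4107 to 7358.

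**Figure D2:**
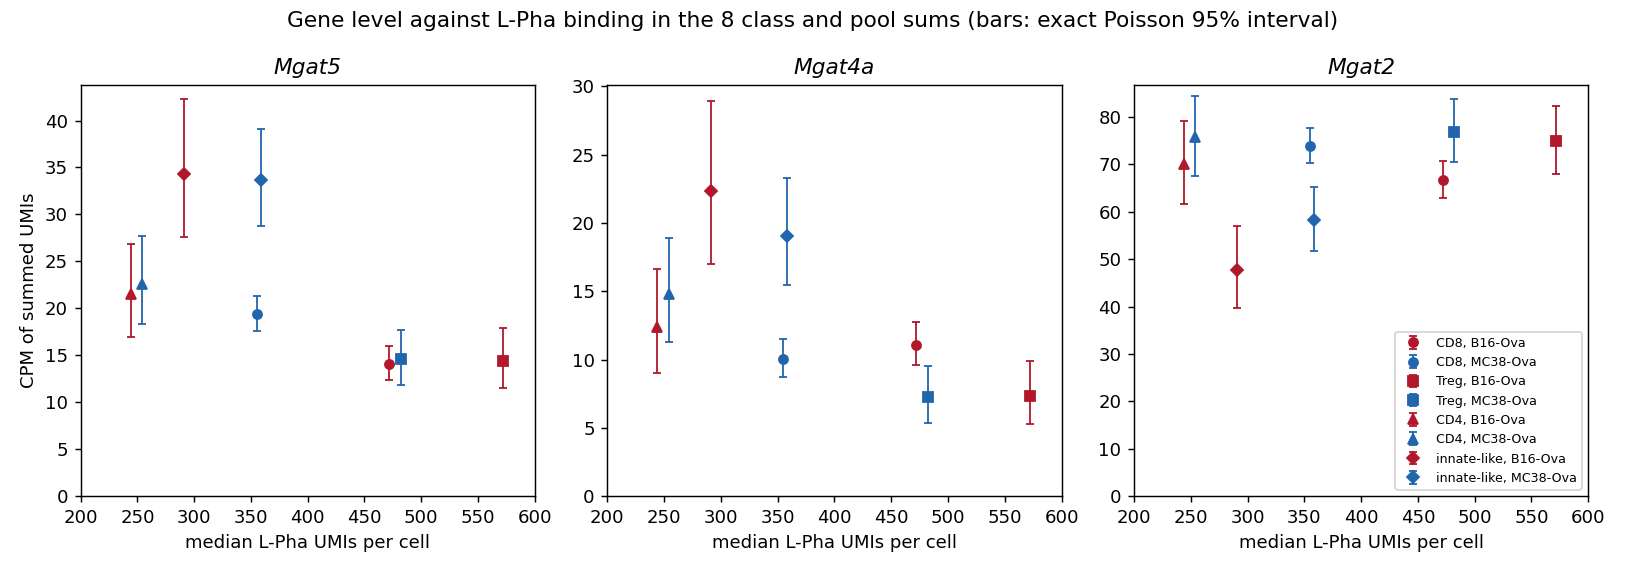
Level of Mgat5, Mgat4a and Mgat2 in CPM of summed UMIs (vertical axes) against the median L-Pha UMIs per cell (horizontal axes) in the 8 class and pool sums, with exact Poisson 95% intervals as bars. For Mgat5 and Mgat4a the innate-like points are highest at 291 and 358.5 L-Pha UMIs, and the Treg points are low at 482 and 572.

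Within CD8 cells, cells with the cytotoxic gene Gzmb had less Mgat5 and Man1a and more Mgat2 than cells with Ccr7, and bound more L-Pha. Gzmb-positive cells were taken as CD8 cells with at least 2 UMIs of Gzmb, a granule protease gene, and no Ccr7 (853 in B16-Ova and 1261 in MC38-Ova). Ccr7-positive cells had Ccr7, a lymph-node homing receptor gene, and no Gzmb (218 and 204). Their median L-Pha UMIs were 658 and 402 against 268.5 and 280, on median RNA UMIs of 8560 and 7635 against 6682.5 and 6101. Of the members 3 of 10 were called in these 4 sums, where 13.4% of 10265 genes were called.

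Mgat5 fell from 26.6 CPM (exact Poisson 95% interval 19.3 to 35.7) in Ccr7-positive to 10.5 CPM (8.46 to 12.8) in Gzmb-positive cells of B16-Ova, and from 31.4 (22.6 to 42.4) to 16.3 CPM (14.0 to 18.9) in MC38-Ova. The groups did not overlap. The fitted difference was -1.30 ± 0.23 (log2, SE; 2.47-fold lower, edgeR adjusted p 0.011). Man1a, the early mannosidase, stood at 55.0 and 50.8 CPM in Ccr7-positive and at 30.8 and 33.9 CPM in Gzmb-positive cells of B16-Ova and MC38-Ova, a change of -0.88 ± 0.16 (1.85-fold lower, edgeR adjusted p 0.012). Mgat2, of the second antenna, rose from 45.3 to 77.7 CPM and from 49.3 to 86.1 CPM, by 0.62 ± 0.14 (1.54-fold, edgeR adjusted p 0.027). For these genes too the 2 groups, of 2 sums each, did not overlap. How many of all genes did so was not counted. Man1a2, which encodes the sister enzyme of Man1a, differed by -0.06 ± 0.16, and Man1a made up 59.1% and 51.9% of Man1a and Man1a2 UMIs in Ccr7-positive against 40.4% and 42.3% in Gzmb-positive cells.

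Mgat4a stood at 14.5 and 13.5 CPM in Ccr7-positive and 8.26 and 8.52 CPM in Gzmb-positive cells of B16-Ova and MC38-Ova, a difference of -0.91 ± 0.28 with an edgeR adjusted p of 0.079. Mgat4b in Ccr7-positive cells rested on 21 UMIs in 3 B16-Ova cells and 2 UMIs in 1 MC38-Ova cell. Mgat1 (0.31 ± 0.22), Man2a1 (0.25 ± 0.19), Man2a2 (-0.41 ± 0.34) and Fut8 (0.03 ± 0.23) did not pass. Tmem163, opposite Mgat5, was higher in Gzmb-positive cells by 2.85 ± 0.24 (edgeR adjusted p 0.00044). All 3 member calls rest on the pool as a block: without it edgeR's adjusted p passed for 0 of them, as with DESeq2, and among cells with 4000 to 10000 RNA UMIs Mgat2 did not pass.

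**Figure D3:**
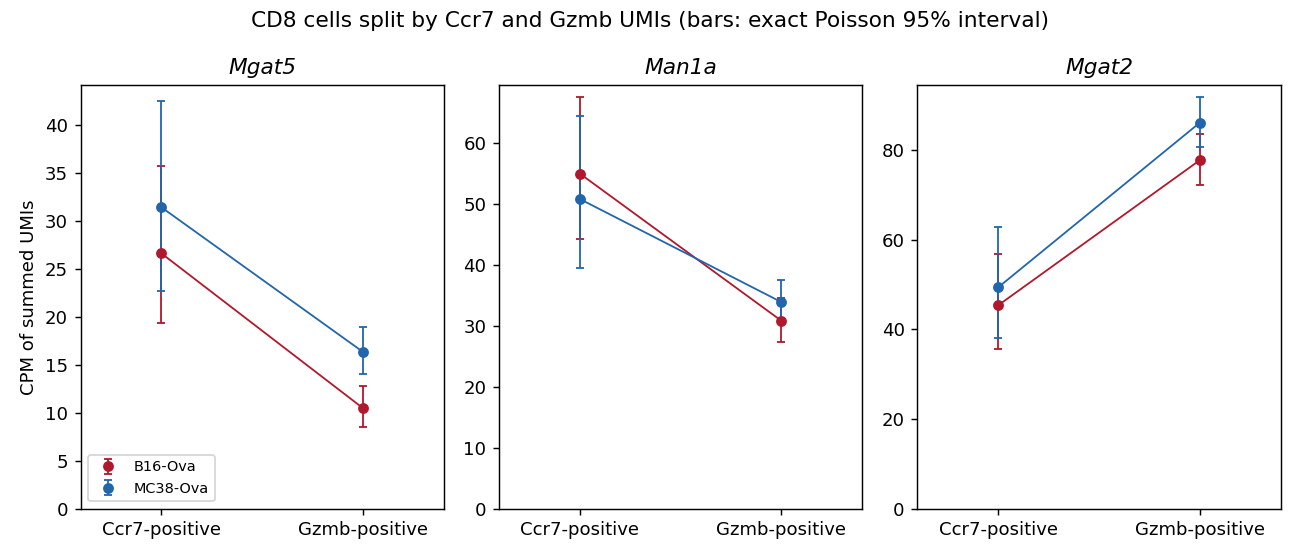
Level of Mgat5, Man1a and Mgat2 in CPM of summed UMIs (vertical axes) in Ccr7-positive and Gzmb-positive CD8 cells, with 1 line per tumour pool and exact Poisson 95% intervals as bars. Mgat5 falls to 10.5 and 16.3 CPM and Mgat2 rises to 77.7 and 86.1 CPM in Gzmb-positive cells.

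Between the cells of a class that bound the most and the least L-Pha, no member passed the test. In both pools of each class Man2a2 stood lower and Mgat1 higher in the high group than in the low group. How many of all genes kept their direction in this way was not counted. With L-Pha scaled to RNA UMIs, as given below, the Man2a2 estimates lay above 0 in each class. With quartiles set inside RNA deciles the Man2a2 estimates lay below 0 in each class. The top and bottom quartiles of L-Pha UMIs were compared within each pool and class, as 16 sums in 1 fit with a block per pool and class. Median L-Pha UMIs rose from 207 to 1160 in B16-Ova CD8 cells and from 238 to 717 in MC38-Ova innate-like cells, for example. RNA rose with it: B16-Ova CD8 cells had a median of 5383 RNA UMIs in the low and 13931 in the high quartile. In edgeR's quasi-likelihood test 0 of 10 members were called in any class, beside 5.4%, 1.57%, 0.309% and 0.237% of 9700 genes in CD8, Treg, CD4 and innate-like cells. Unadjusted p was under 0.05 for 2, 3, 3 and 0 members, beside 2260, 1643, 1494 and 993 of the 9700 genes. DESeq2 called 0, but gave no adjusted p for 9, 9, 7 and 1 of the 10.

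Man2a2 stood at 8.54 CPM in L-Pha-low and 4.12 CPM in L-Pha-high CD8 cells of B16-Ova and at 14.7 and 8.69 CPM in MC38-Ova. In Treg cells it stood at 14.6 and 6.08 CPM in B16-Ova and at 24.7 and 12.9 CPM in MC38-Ova, and in CD4 cells at 23.9 and 17.1 CPM and at 34.2 and 9.36 CPM. The fitted differences were -0.99 ± 0.33, -1.05 ± 0.39 and -1.19 ± 0.39 (log2, SE), with edgeR adjusted p of 0.10, 0.21 and 0.19. In innate-like cells the difference was -0.39 ± 0.57, on 3 to 15 UMIs a sum. When the quartiles were set inside each decile of RNA UMIs, the 4 differences were -0.49 ± 0.29, -0.68 ± 0.35, -0.91 ± 0.37 and -0.01 ± 0.52 in CD8, Treg, CD4 and innate-like cells.

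Mgat5 did not pass the test between L-Pha-low and L-Pha-high cells of any class. In L-Pha-low and L-Pha-high cells it stood at 23.0 and 11.7 CPM in B16-Ova Treg cells and at 19.4 and 11.2 CPM in MC38-Ova Treg cells. In CD4 cells the values were 17.9 and 25.7 CPM in B16-Ova and 11.9 and 26.3 CPM in MC38-Ova. The differences were -0.87 ± 0.32 in Treg, 0.80 ± 0.35 in CD4, -0.21 ± 0.25 in CD8 and -0.40 ± 0.29 in innate-like cells, with edgeR adjusted p of 0.20, 0.30, 0.66 and 0.67. The test of whether the difference varied between classes had an unadjusted p of 0.028 for Mgat5 and an edgeR adjusted p above 0.99, and called 0 of 9700 genes (429 at an unadjusted p under 0.05). Within RNA deciles the differences for Mgat5 were -0.43 ± 0.30 in Treg and 1.00 ± 0.32 in CD4 cells.

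Mgat1 stood at 15.0 and 21.9 CPM in L-Pha-low and L-Pha-high CD8 cells of B16-Ova and at 22.1 and 29.2 CPM in those of MC38-Ova. Its 4 fitted differences were 0.34 ± 0.22, 0.33 ± 0.27, 0.59 ± 0.30 and 0.31 ± 0.32 in CD8, Treg, CD4 and innate-like cells, and none passed. The largest estimate of all, 3.07 ± 0.98 for Mgat4b in CD4 cells (edgeR adjusted p 0.17), came from 1 and 2 UMIs in the low against 33 and 24 UMIs in the high quartiles. Of the 33 in B16-Ova 24 were in the barcode with 66112 RNA UMIs named above. For Mgat5 the 95% interval in CD8 cells ran from -0.76 to 0.33.

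The remaining members did not pass either. In CD8, Treg, CD4 and innate-like cells the fitted differences were -0.41, -0.61, -0.01 and -0.32 for Man1a and -0.13, -0.30, -0.05 and -0.27 for Man1a2. They were -0.22, 0.03, 0.11 and -0.14 for Man2a1 and 0.18, 0.09, -0.27 and -0.14 for Mgat2. For Mgat4a they were -0.72, 0.51, 0.48 and 0.19, and for Fut8 -0.31, -0.21, -0.48 and -0.07. Man1a, Man1a2 and Fut8 thus had estimates below 0 in each class.

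**Figure D4:**
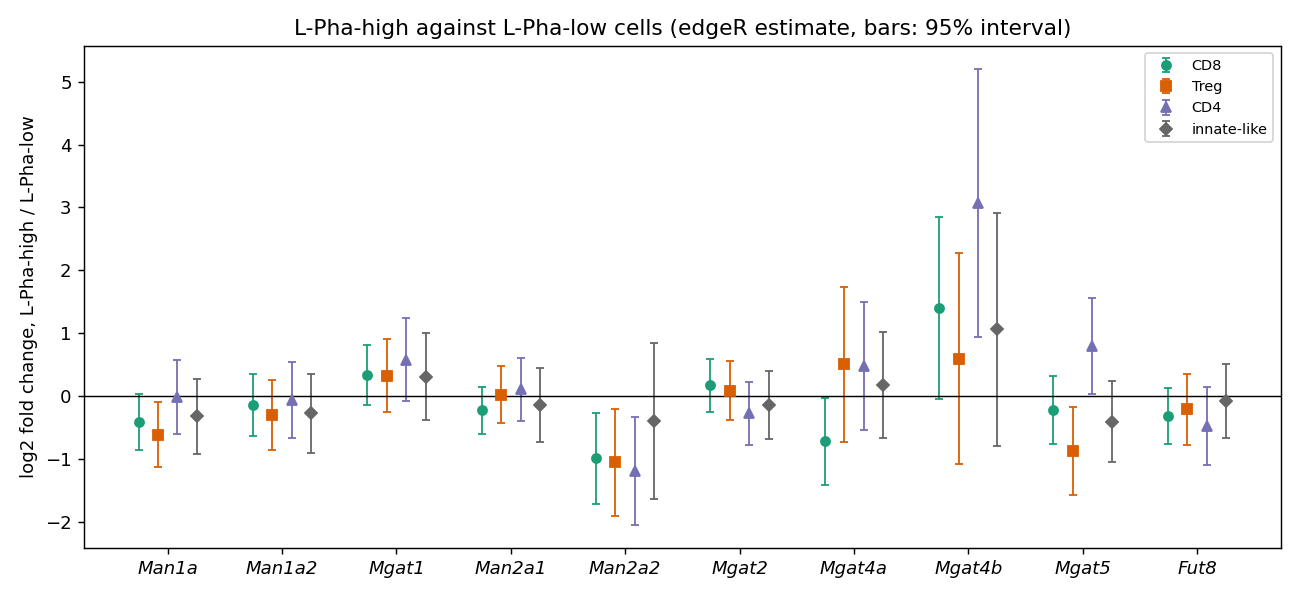
Log2 fold change of each gene between the top and the bottom quartile of L-Pha UMIs (vertical axis) in the 4 T cell classes, as edgeR estimates from 16 sums with their 95% intervals as bars. Man2a2 lies below 0 and Mgat1 above 0 in each class, and Mgat4b in CD4 cells is at 3.07 with an interval from 0.94 to 5.20.

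RNA of other cells also differed between the quartiles. Macrophage markers summed higher in the high quartile of all 8 class and pool pairs, fibroblast markers in the 4 classes of MC38-Ova and not in B16-Ova, and melanoma markers in 4 of the 8 pairs. Melanoma markers summed to 29.7 CPM in L-Pha-low and 536 CPM in L-Pha-high B16-Ova CD8 cells, and to 35 and 1221 CPM in B16-Ova innate-like cells, but to 40.0 and 18.2 CPM in B16-Ova Treg cells. Fibroblast markers summed to 2.15 and 544 CPM in MC38-Ova Treg cells, but to 8.97 and 3.89 CPM in B16-Ova CD4 cells, and macrophage markers summed to 12.1 and 334 CPM in MC38-Ova innate-like cells. Their part in the member values was not tested.

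The direction depended on how L-Pha was scaled. With quartiles of L-Pha UMIs per 1000 RNA UMIs, the high groups held less RNA. In B16-Ova Treg cells the medians were 2655 against 7968 RNA UMIs. There 6 member values were called: 1 in CD8, 2 in Treg, 3 in CD4 and 0 in innate-like cells. Beside them 788, 1672, 963 and 68 of 9779 genes were called in these classes. Mgat5 was then higher in L-Pha-high CD4 cells by 1.45 ± 0.28 (edgeR adjusted p 0.0063), and in Treg cells its difference was 0.84 ± 0.29 (edgeR adjusted p 0.066), of opposite sign to that above. Man2a1 was higher in CD8, Treg and CD4 cells (0.68 ± 0.19, 1.18 ± 0.24 and 1.03 ± 0.26; edgeR adjusted p 0.035, 0.0047 and 0.023). Man1a was higher in Treg and CD4 cells (1.10 ± 0.21 and 0.93 ± 0.24; edgeR adjusted p 0.0028 and 0.028). The Man2a2 differences were 0.11, 0.56, 0.06 and 0.17 in CD8, Treg, CD4 and innate-like cells, all above 0, and none passed.

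Cell by cell, within 10 strata of RNA depth, cells with and without a UMI of a member were compared for log2 L-Pha UMIs, for members seen in at least 100 cells of a pool and class. The median of the 47 differences was 0.08, with 38 above 0, and the medians over all genes were 0.01 to 0.05 in the classes and pools. Mgat5 gave -0.08 in B16-Ova CD8 cells, where 10.2% of genes were lower, 0.04 in MC38-Ova CD8 cells and 0.02 in MC38-Ova innate-like cells. The values above the 95th percentile of genes were Man1a, Man1a2 and Mgat1 in MC38-Ova CD4 cells (0.34, 0.21 and 0.19) and Mgat1 in MC38-Ova CD8 cells (0.21). Of the 47 values 32 lay above the median of all genes, and 0 below the 5th percentile. Cells are not replicates, and no test was made.

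CD8 cells with much surface PD-1, an inhibitory receptor of stimulated T cells, were compared with those with little. Median PD-1 tag UMIs were 35 and 32 in the top and 11 and 12 in the bottom quartiles of B16-Ova and MC38-Ova. In edgeR's quasi-likelihood test 0 of 10 members were called, beside 2.67% of 10399 genes. Its unadjusted p was under 0.05 for 2 members, beside 2087 of the 10399 genes, and DESeq2 called 0 members. Mgat4a stood at 14.6 and 14.7 CPM in PD-1-low and 8.19 and 8.17 CPM in PD-1-high cells of B16-Ova and MC38-Ova (-0.92 ± 0.23, edgeR adjusted p 0.088). Mgat5 stood at 20.0 and 22.2 CPM in PD-1-low and 11.1 and 16.3 CPM in PD-1-high cells (-0.71 ± 0.21, edgeR adjusted p 0.13). For both genes the groups, of 2 sums each, did not overlap, and how many of all genes did so was not counted. Both were called when no filter on low counts was set, beside 1305 of 16014 genes. The other 8 differences lay between -0.58 ± 0.31 (Man2a2) and 0.29 ± 0.14 (Mgat2). PD-1-high cells had medians of 11936 and 8870 RNA UMIs against 6005 and 5978.

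Between the tumours, the clearest difference among the members was Man2a2, which stood higher in MC38-Ova than in B16-Ova CD8 and Treg cells. With 1 pool per tumour no test was possible, and ratios are given with exact conditional 95% intervals that cover counting error only. The ratio of MC38-Ova to B16-Ova was 2.12 (1.65 to 2.75) in CD8 cells, from 224 and 87 UMIs, and 1.83 (1.31 to 2.59) in Treg cells, from 117 and 53. In CD4 cells it was 0.96 (0.69 to 1.33), and in innate-like cells 1.498 (0.83 to 2.83), from 47 and 16 UMIs. No cell held more than 4 Man2a2 UMIs in these sums. Fut8 was at 1.58 (1.29 to 1.94) in Treg cells and between 0.80 and 1.23 in the other classes. These 3 ratios were the only ones past 1.5-fold among members with at least 100 UMIs in both pools together: 1 in CD8 cells, where 11.2% of genes were past it, 2 in Treg cells (8.54%), and 0 in CD4 (6.39%) and innate-like cells (5.92%).

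Mgat1 was above 1 in each class, from 1.21 to 1.44, and Mgat5 stood at 1.37 (1.17 to 1.62) in CD8 cells and at 0.98 to 1.05 in the other 3 classes. The ratios of the other 6 members lay between 0.69 and 1.66, both for Mgat4b (in innate-like and in Treg cells), on fewer than 100 UMIs. Among cells with 4000 to 10000 RNA UMIs the Man2a2 ratio in CD8 cells was 1.68 (1.17 to 2.44) and the Fut8 ratio in Treg cells 1.46 (1.10 to 1.93), while Mgat1 passed 1.5-fold in CD8 (1.51) and CD4 cells (1.61). The Man2a2 ratio in CD4 cells was not stable: it was 1.55 (0.94 to 2.61) in that window, on 44 and 27 UMIs, and 0.57 (0.28 to 1.10) with hashtags at least 10 times the other, on 16 and 25. That hashtag rule also took Mgat5 in CD8 cells to 1.53 and Man1a in CD4 cells to 0.64. Without the 5% of cells with most RNA Mgat4b in CD8 cells stood at 1.60, and with stricter class gates Fut8 in innate-like cells stood at 0.65. Fibroblast and melanoma markers differed between the pools as given above, and their part in these ratios was not tested.

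**Figure D5:**
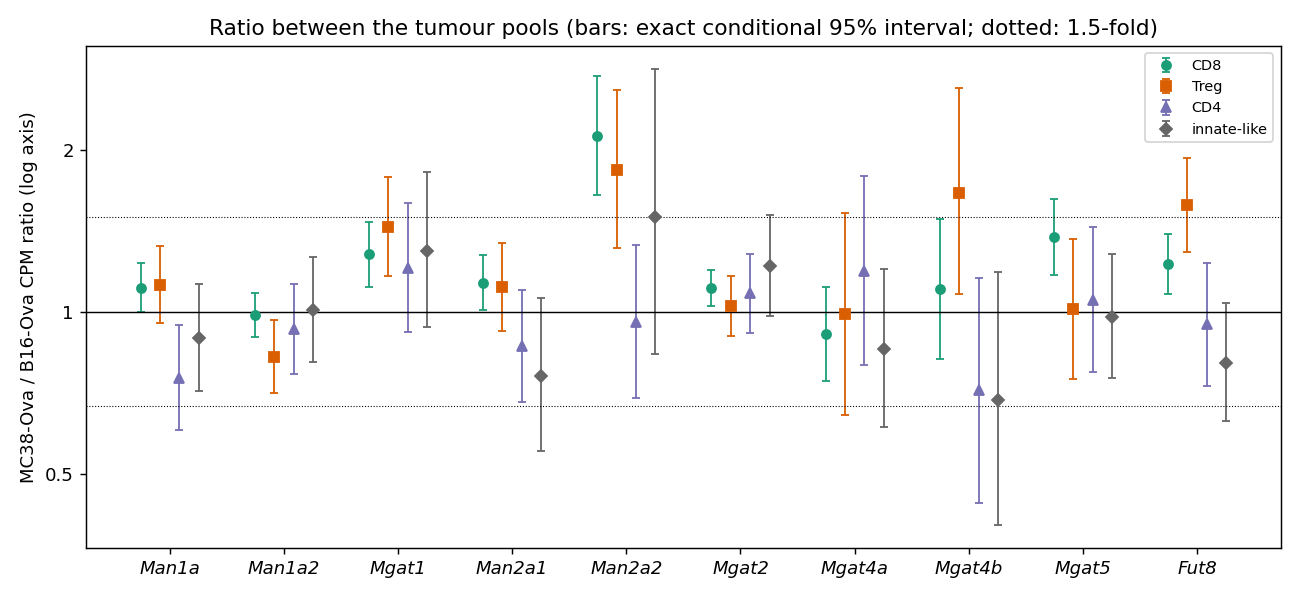
Ratio of the MC38-Ova to the B16-Ova level of each gene (vertical axis, log scale) in the 4 T cell classes, with exact conditional 95% intervals as bars and dotted lines at 1.5-fold in either direction. Man2a2 lies at 2.12 in CD8, 1.83 in Treg, 1.498 in innate-like and 0.96 in CD4 cells, and most other points lie within the dotted lines.

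Other genes of the pathway were read from 4 lists of 57 genes in all. They cover further trimming and branching enzymes (13 genes), supply of sugar donors (16), extension and capping of antennae (15) and Golgi structure and acidity (13), and 42 to 46 were tested in each comparison. For Treg against innate-like cells 4 of 46 were higher and 5 lower, where 21% of all genes were called, and for each of the other 5 class pairs 2 or 3 of 46 passed, where 3.35% to 15.5% of all genes were called. Among the trimming genes only Man1c1, another class I mannosidase gene, passed: it was lower than in innate-like cells by 2.51 ± 0.33 in CD8, 2.13 ± 0.35 in Treg and 1.75 ± 0.36 in CD4 cells (log2, SE; edgeR adjusted p 0.0061, 0.0046 and 0.022). Of the donor genes only Uap1, which makes the UDP-GlcNAc that the transferases use, passed, higher in Treg than in innate-like cells by 0.93 ± 0.19 (edgeR adjusted p 0.012). Of the Golgi genes Gorasp1 (3.05 ± 0.78) and Golph3 (0.39 ± 0.12) passed in that pair, with edgeR adjusted p of 0.030 and 0.049.

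The remaining calls were genes of antenna extension and capping. The galactosyltransferase gene B4galt5 was higher in CD8 than in Treg and CD4 cells by 0.79 ± 0.16 and 0.80 ± 0.17 (edgeR adjusted p 0.018 and 0.038), and B4galt1 was lower in Treg than in CD4 cells by 0.59 ± 0.12 (edgeR adjusted p 0.048). The fucosyltransferase gene Fut7 was higher in CD8, Treg and CD4 than in innate-like cells by 2.47 ± 0.46, 3.30 ± 0.45 and 2.06 ± 0.51 (edgeR adjusted p 0.020, 0.0021 and 0.045), and in Gzmb-positive than in Ccr7-positive CD8 cells by 2.47 ± 0.40 (edgeR adjusted p 0.0081). In that CD8 comparison 1 listed gene of 42 was higher and 3 were lower, beside 13.4% of all genes called: Cmah fell by 2.43 ± 0.26, St6gal1 by 1.78 ± 0.32 and B4galt1 by 0.56 ± 0.14 (edgeR adjusted p 0.0015, 0.012 and 0.039). The sialyltransferase gene St3gal6 was lower in Treg than in CD4 cells by 1.48 ± 0.19 and than in innate-like cells by 2.00 ± 0.19 (edgeR adjusted p 0.0077 and 0.00035). St6gal1, another sialyltransferase gene, was lower in CD8 than in CD4 cells by 1.13 ± 0.19 and higher in CD4 than in innate-like cells by 1.03 ± 0.22 (edgeR adjusted p 0.019 and 0.025). St3gal6 and St3gal3 were higher in CD8 than in Treg cells by 1.74 ± 0.18 and 1.53 ± 0.39 (edgeR adjusted p 0.00086 and 0.035), and Cmah was lower in Treg than in innate-like cells by 0.79 ± 0.22 (edgeR adjusted p 0.039), as was St3gal3 (edgeR adjusted p 0.044). In L-Pha-high cells 2 of 42 listed genes fell in CD8 cells, beside 5.4% of all genes called, and 1 in Treg cells, beside 1.57%, and 0 rose in any class. St6gal1 fell by 2.26 ± 0.31 in CD8 and 2.00 ± 0.36 in Treg cells (edgeR adjusted p 0.0097 and 0.027), and Cmah, which makes the sialic acid Neu5Gc, fell by 2.10 ± 0.30 in CD8 cells (edgeR adjusted p 0.010). These L-Pha quartiles differed in RNA depth. With quartiles set inside RNA deciles, calls over all genes fell from 524 to 19 in CD8 and from 152 to 8 in Treg cells. Values of these listed genes were not read there. In PD-1-high CD8 cells Cmah, the 1 of 44 listed genes called beside 2.67% of all genes, fell by 1.89 ± 0.25 (edgeR adjusted p 0.016).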

How the data were processed

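The deposited files hold UMI counts per gene and cell barcode (mm10) and counts per tag and barcode; the submitters' processing notes name Cell Ranger 3.1.0, R 3.6.1 and Seurat 3.1.0, and whether strand was used is not given in the sources used here. The authors' counts were used as deposited. No doublet caller was run. The 3-fold hashtag rule removed droplets with similar counts of both tumours' hashtags, but droplets with uneven counts of both could stay. Runs with a 10-fold hashtag rule and without the 5% of cells with most RNA were alternatives. UMIs were summed per pool and class or quartile and tested with edgeR 4.0.16 (quasi-likelihood, TMM scaling, filterByExpr with a minimum count of 10, R 4.3.3), with Benjamini-Hochberg adjustment over all genes tested. DESeq2 1.42.0 was an alternative. The pool is the block because, by the hashtag labels, its cells come from the same tumours. CPM is summed UMIs per 1000000 summed RNA UMIs. Intervals are exact at 95% and cover counting error only. Depth per class and pool stands in the report. Tests were tried on simulated data.

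All 10 members were read in every comparison, and those not described singly are given by their range. Of each pathway list, up to 4 genes past the threshold with the largest change per comparison were eligible, and for Mgat5 the 5 genes with the highest correlation over the 8 sums. The members and lists were chosen with earlier results of these data known. Sequences are from RefSeq (GRCm38.p6) and gene positions from GENCODE on GRCm38.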

Additional observations from a re-analysis of the deposited data

How the results depend on the processing

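All 121 alternative values of the 13 called member differences kept their direction, and 32 of the 95 with a test missed the threshold. Of 1031 alternative values of uncalled members 127 changed sign and 24 passed. In the class comparisons 10 member results were called. With hashtags at least 10 times the other 2 were called, with no replicate block 4, with DESeq2 6 and without the 5% of cells with most RNA 16. For Gzmb-positive against Ccr7-positive CD8 cells 3 were called, and 0 with no replicate block or with DESeq2, where 176 and 524 genes were called instead of 1374. The pairing of sums within a pool comes from the hashtags. For L-Pha high against low 0 were called, 1 with no filter on low counts and 2 with each class fitted alone. Those calls were in CD4 cells, where 543 and 624 genes were called instead of 30. With L-Pha per 1000 RNA UMIs 6 were called, and more of all genes were called too in each class. Of those 6, 3 had changed sign: Man2a1 in CD8 cells (0.68) and Man1a in Treg (1.10) and CD4 cells (0.93). Mgat5 in Treg cells and Man2a2 in all 4 classes were among the uncalled values that also changed sign there. For PD-1 0 were called, and 2 with no filter, beside 1305 of 16014 genes. The cause of these changes was not tested. Each pool alone gives values and no test.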

Other observations

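The 6195 cells in no class had Mgat5 at 17.3 CPM in B16-Ova and 16.3 CPM in MC38-Ova, between the Treg and CD4 levels of each pool. Their Mgat4a stood at 9.59 and 9.45 CPM and their Mgat2 at 71.2 and 71.6 CPM. Their Man2a2, at 7.77 and 13.1 CPM, was again higher in MC38-Ova.

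Among 5405 genes with a mean of at least 20 CPM, those whose log2 level followed Mgat5 most closely over the 8 sums were Pdcd4 (Pearson's r 0.99), Card6 (0.98), Hpcal1 (0.97), Gm9844 (0.97) and Tmsb10 (0.97). Pdcd4, which encodes an inhibitor of translation, stood at 102, 103, 155 and 193 CPM in CD8, Treg, CD4 and innate-like cells of B16-Ova and at 138, 107, 143 and 203 CPM in MC38-Ova. The sums share a capture and 4 classes, so these values describe these sums. Among the members Mgat4a followed Mgat5 most closely, with r of 0.93, and Mgat2 ran opposite to it, with r of -0.77.

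Single barcodes held a part of the Mgat4b UMIs in CD8 cells too. In B16-Ova CD8 cells 18 of 80 came from 1 barcode with 59150 RNA UMIs, and in MC38-Ova CD8 cells 11 of 107 came from 1 barcode with 108807 RNA UMIs.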
